A study of Mus musculus with 4 samples.

Results

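The 8 transcription factor genes described here act at the output side of the circadian clock and were followed in single nuclei of mouse motor cortex: Dbp, Tef, Hlf, Nfil3, Ciart, Bhlhe40, Bhlhe41 and Rora. They were taken by symbol, and all 8 were found among the 32286 features of each of the 4 count matrices. The data are single-nucleus RNA sequencing libraries made from C57BL/6N mice, with the primary motor area cut out of frozen coronal brain sections, and there is 1 library for each of 4 groups. The ad lib group slept without disturbance. The sleep-deprived group was kept awake by gentle handling. A wild-type SIK3 group received a local dose of AAV8-hSyn-FLAG-SIK3(WT), and an Ex13del group received AAV8-hSyn-FLAG-SIK3(Ex13del) in the same way. SIK3 is a protein kinase, the series' design text calls the mutant form a gain-of-function form, and hSyn is the human synapsin promoter, which drives expression in neurons. The virus is local, so an AAV library mixes nuclei that carry it with nuclei that do not. The labels used here give neither the age, sex or number of mice behind a library nor the time of day at which brains were collected, and a difference in collection time between groups was not tested. With 1 library per group there is no replicate check, so no test between groups was made; intervals are exact 95% intervals and cover counting error only.

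DBP, TEF and HLF are the PAR bZIP proteins, which activate genes through a DNA element called the D-box, and NFIL3 (E4BP4) is the bZIP protein that represses through the same element. CIART (CHRONO) represses the CLOCK-BMAL1 activator, and BHLHE40 (DEC1) and BHLHE41 (DEC2) are repressors that bind the E-box, the element that CLOCK-BMAL1 also uses. RORA activates genes through the ROR element (RORE), which it shares with the NR1D1 and NR1D2 repressors. Dbp is among the classic genes driven by CLOCK-BMAL1, and many of these factors are known to cycle over the day in the brain.

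The start-site regions of these genes are shown first for the 4 genes on which the comparisons turn, Ciart and Dbp for sleep deprivation and Hlf and Nfil3 for the viral libraries. Of the 8 genes, 7 had an entry in the RefSeq promoter windows of build GRCm38.p6, with 8 windows in all because Tef has 2 start sites. Each window runs from 250 bases before to 50 bases after the start site and is printed 5′ to 3′ on the strand of the gene. Capitals mark matches to 4 motifs searched on both strands: the E-box CACGTG, the D-box TTANGTAA, the RORE TAGGTCA, which reads TGACCTA on the other strand, and the cAMP response element TGACGTCA.
Ciart, chr3:95882179-95882478, minus strand: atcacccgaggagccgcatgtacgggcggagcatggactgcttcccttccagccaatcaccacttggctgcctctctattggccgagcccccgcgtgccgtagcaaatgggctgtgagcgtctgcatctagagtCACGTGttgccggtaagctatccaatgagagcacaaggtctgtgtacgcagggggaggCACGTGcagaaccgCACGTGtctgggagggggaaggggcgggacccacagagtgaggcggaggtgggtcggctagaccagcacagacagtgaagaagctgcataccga
Dbp, chr7:45704997-45705296, plus strand: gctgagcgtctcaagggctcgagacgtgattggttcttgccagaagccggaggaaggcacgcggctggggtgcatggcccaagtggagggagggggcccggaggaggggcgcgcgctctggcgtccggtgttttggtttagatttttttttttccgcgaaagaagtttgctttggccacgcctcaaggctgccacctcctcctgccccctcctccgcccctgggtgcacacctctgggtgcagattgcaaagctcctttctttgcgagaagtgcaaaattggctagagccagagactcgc
Hlf, chr11:90390868-90391167, minus strand: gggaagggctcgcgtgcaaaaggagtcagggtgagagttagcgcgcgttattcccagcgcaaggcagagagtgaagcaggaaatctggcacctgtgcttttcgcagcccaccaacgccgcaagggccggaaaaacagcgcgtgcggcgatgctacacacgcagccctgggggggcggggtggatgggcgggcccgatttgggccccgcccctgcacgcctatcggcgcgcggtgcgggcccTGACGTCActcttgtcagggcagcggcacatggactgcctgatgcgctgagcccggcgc
Nfil3, chr13:52980990-52981289, minus strand: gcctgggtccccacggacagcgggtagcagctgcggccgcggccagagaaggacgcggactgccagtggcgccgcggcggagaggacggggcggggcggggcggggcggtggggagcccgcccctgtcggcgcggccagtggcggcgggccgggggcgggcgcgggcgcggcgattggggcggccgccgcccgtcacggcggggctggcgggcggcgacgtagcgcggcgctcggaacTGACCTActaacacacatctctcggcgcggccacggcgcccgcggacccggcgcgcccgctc
The Ciart window holds 3 E-boxes, which begin 116, 58 and 44 bases before the start site. Of 32851 windows of the same length, 7.15% hold at least 1 such E-box and 0.0883% hold 3 or more. Hlf has 1 cAMP response element, 9 bases before the start site, an element held by 1.79% of all windows. Nfil3 has 1 RORE, 12 bases before the start site, where the share of all windows is 2.61%. Single E-boxes were also found in both Tef windows, 127 and 138 bases before their start sites, and in the Bhlhe41 window at 153 bases. No window of the 8 held the D-box, which 2.32% of all windows hold, and the Dbp and Rora windows held none of the 4 motifs. A match describes letters only, and a window without one says nothing about sites elsewhere.

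The genes lie apart from each other on mm10, but several share bases with a neighbour. Ciart (3:95878503-95882251, minus strand) lies wholly within the antisense gene C920021L13Rik. The 3′ end of Dbp (7:45705088-45710203, plus strand) overlaps Sphk2 over 737 bases. Hlf (11:90336536-90390895, minus strand) and Nfil3 (13:52967209-52981073, minus strand) overlap no other gene of the annotation used. Tef (15:81802421-81826863, plus strand) and Bhlhe40 (6:108660629-108666925, plus strand) share 193 and 306 bases with antisense genes, and Bhlhe41 (6:145858243-145865558, minus strand) shares 1876 bases with a gene that is not in the feature table. Rora spans 734461 bases (9:68653786-69388246, plus strand) and shares 15359 of them with the antisense gene Gm15511. The strand setting of the counting is not given in the sources used here, so levels of the overlapping genes in the feature table are given below for excitatory neurons.

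The 4 matrices held between 5944 and 9438 barcodes and between 43655557 and 54070503 UMIs. After filters, 25445 nuclei were kept, of which 21386 fell in named clusters. Clusters were named from marker genes, so each name stands for a marker-based likeness (excitatory neuron-like and so on). The clusters cover the cortical excitatory subclasses from L2/3 IT to L6b, 4 inhibitory subclasses and the main glial and vascular classes. They also include 1174 nuclei with markers of striatal projection neurons, a cell type from below the cortex. The vector sequence had 0 UMIs in the ad lib and sleep-deprived libraries, as their labels require. Pairs of libraries shared between 9 and 16 barcodes. Excitatory nuclei were deeper in the sleep-deprived library, with a median of 13211.5 UMIs, than in the ad lib (7201), wild-type SIK3 (8952.5) and Ex13del (9587) libraries. Levels are therefore given in CPM: the UMIs of a gene over all UMIs of a class in a library, scaled to the usual total. An unnamed cluster of low depth held 1404 nuclei of the sleep-deprived library against 515, 640 and 567 of the ad lib, wild-type SIK3 and Ex13del libraries, and it enters none of the levels.

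The 3 PAR bZIP genes were higher in astrocytes than in excitatory neurons and inhibitory neurons, each taken as a whole class, in every library. Here and below, classes are ranked only among those with at least 50 nuclei in each library. Values of smaller classes are given at the end. Dbp averaged 84.1 CPM in astrocytes (range of the 4 libraries 62.0 to 98.4), 27.6 in excitatory neurons (20.9 to 31.4) and 22.6 in inhibitory neurons (17.9 to 26.9). Its mean was highest in endothelial cells, at 91.6 CPM, but there the libraries ran from 53.2 to 135 and overlapped those of astrocytes. For Tef, astrocytes came first at 171 CPM (141 to 192), ahead of striatal projection neurons at 125 CPM (97.4 to 141), although the highest library of oligodendrocytes (142) and of microglia (151) reached into that range. Hlf was also highest in astrocytes, at 196 CPM (191 to 204), with endothelial cells next at 142 CPM (127 to 169). Hlf was thus the PAR bZIP gene with an astrocyte range clear of every other class that had at least 50 nuclei in each library.

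Among the PAR bZIP genes Hlf separated the subclasses of cortical neurons most. The near-projecting L5/6 NP neurons had 211, 174, 186 and 176 CPM in the ad lib, sleep-deprived, wild-type SIK3 and Ex13del libraries, above the range of every other neuron subclass; in the ad lib library this was also above the astrocyte level (191 CPM). L4/5 IT (142 CPM), L2/3 IT (130) and Lamp5/Sncg neurons (123) followed with overlapping ranges. The lowest mean levels were those of L6b (44.5 CPM) and Vip neurons (42.6). Dbp and Tef spanned less, from 15 CPM in L6b to 41.8 in Lamp5/Sncg neurons for Dbp and from 55.2 in Pvalb to 95.2 in Lamp5/Sncg neurons for Tef, and every neighbouring pair in their order of subclasses overlapped. Across the 18 classes and subclasses, Dbp and Tef had a Pearson r of 0.91 on log2(CPM + 1) and Dbp and Hlf one of 0.67, as a description over units that share libraries.

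Nfil3, the repressor at the D-box, was scarce everywhere. Its mean lay between 2.74 CPM in astrocytes and 5.76 in oligodendrocytes, and all neighbouring ranges overlapped. In astrocytes of the Ex13del library no Nfil3 UMI was counted. Only 755 Nfil3 UMIs were found in all named nuclei, against 16601 for Hlf, so a difference between classes in Nfil3 was not detectable at this depth.

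The repressors of the CLOCK-BMAL1 loop differed in where they were found. Bhlhe40 was highest in astrocytes at 81.8 CPM (70.7 to 86.9) and in endothelial cells at 63.1 CPM (47.9 to 77.9), and lowest in inhibitory neurons at 10.1 CPM (8.47 to 12). In cortical excitatory neurons the subclasses fell on either side of a gap. L5 ET (49.2 CPM), L2/3 IT (46.8), L4/5 IT (40.1) and L5 IT neurons (35.3) were on one side, with no library under 32.1 CPM. L6 CT (10.9), L5/6 NP (6.48) and L6b neurons (5.77) were on the other, with no library over 13.1 CPM, and L6 IT neurons lay between them at 23.7 CPM (17.6 to 31.2). Bhlhe41 had another order, with microglia highest at 53.7 CPM (37.1 to 75.6) and striatal projection neurons next at 38.8 CPM (33.5 to 45.4). Its neuron subclasses stayed between 10.2 and 17.4 CPM, with every neighbouring range overlapping. Ciart had its highest means in endothelial cells (22.7 CPM) and astrocytes (20.9 CPM) and its lowest in inhibitory neurons (8.90 CPM), again with overlapping ranges.

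Rora showed the widest spread over cell types. Astrocytes had 2980, 4115, 4442 and 4194 CPM in the ad lib, sleep-deprived, wild-type SIK3 and Ex13del libraries, and microglia had 146, 125, 204 and 133. Between them came striatal projection neurons (2184 CPM on average), oligodendrocyte precursors (1956), inhibitory neurons (1170) and excitatory neurons (1090). Among the subclasses of cortical neurons L5 IT (2313 CPM, 2161 to 2411) and L4/5 IT neurons (1972 CPM, 1900 to 2062) had the highest levels. L6b neurons had the lowest (402 CPM, 345 to 458). Rora's neighbour Gm15511 had 12.1 to 14.0 CPM in excitatory neurons of the 4 libraries. The plot of levels by class and subclass sets the 8 genes side by side.

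**Figure D1:**
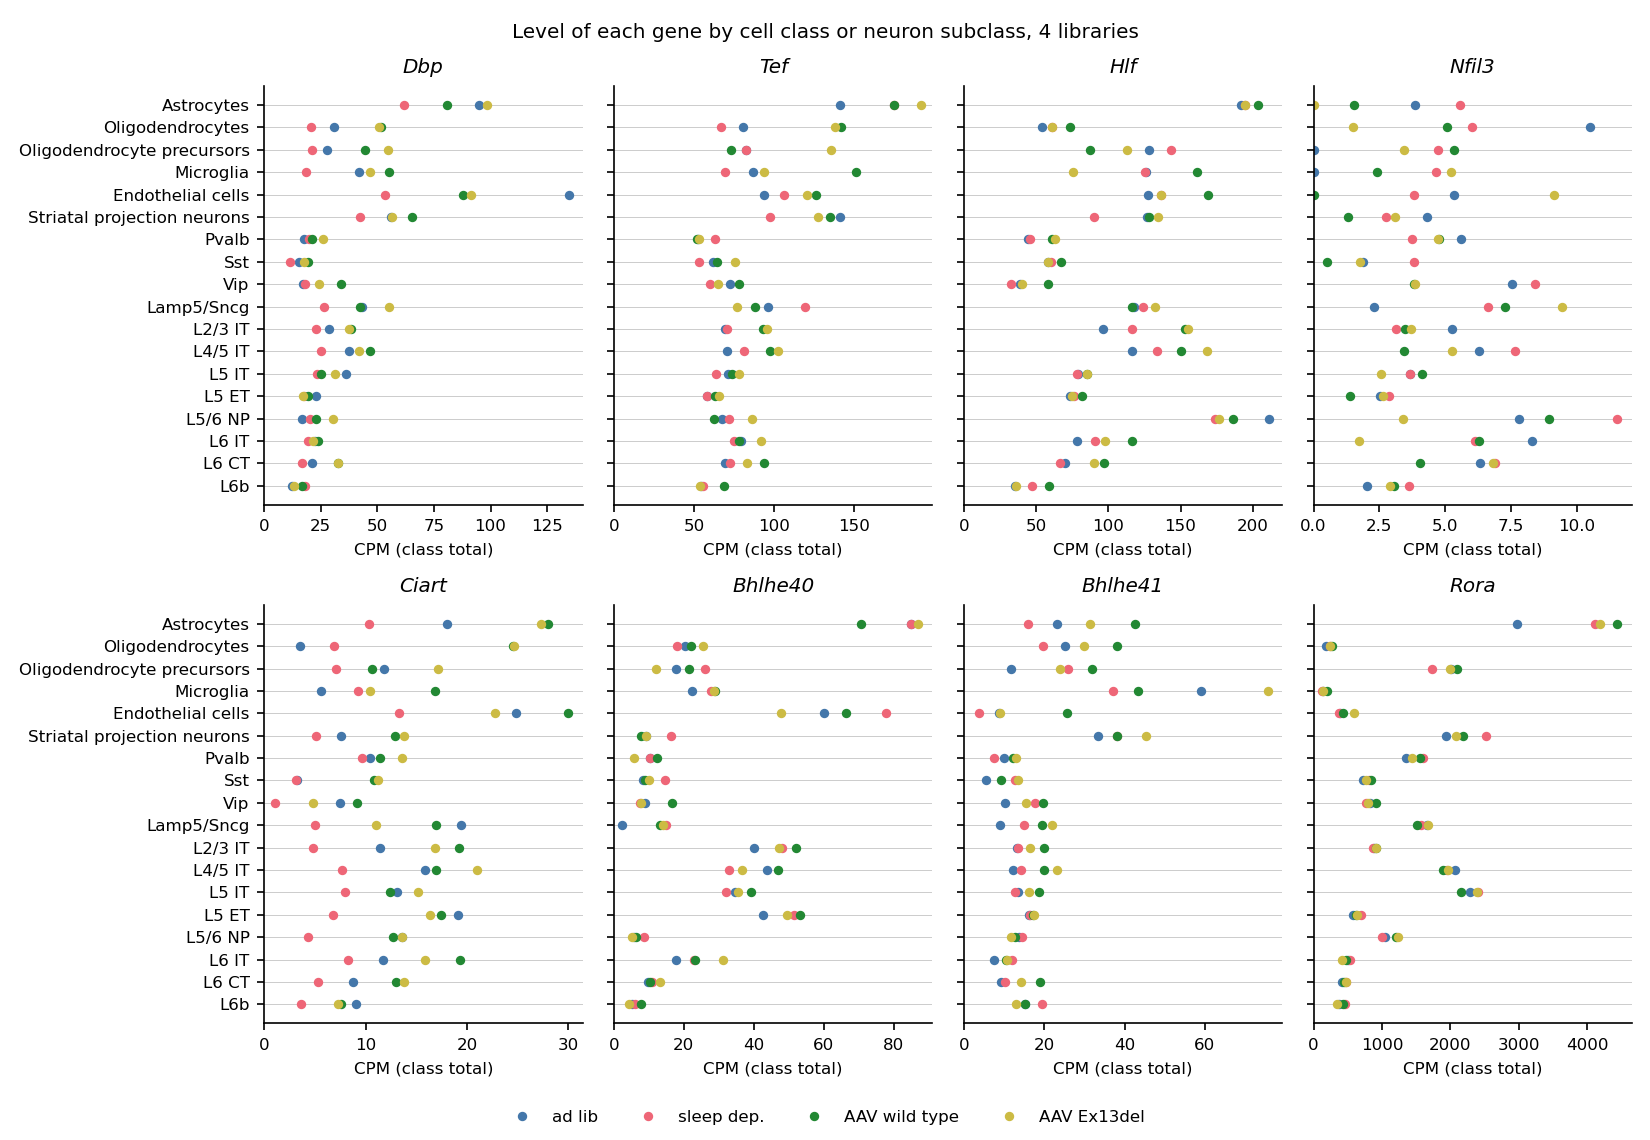
Level of each gene (CPM of the class total, linear axes that differ between panels) by cell class or neuron subclass, 1 point per library. Of the classes with at least 50 nuclei in each library, astrocytes have the highest mean for Tef, Hlf and Rora; Hlf is also high in L5/6 NP neurons (174 to 211 CPM), and Bhlhe40 is higher in L5 ET, L2/3 IT, L4/5 IT and L5 IT than in L6 CT, L5/6 NP and L6b neurons.

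Sleep deprivation was compared with ad lib sleep to see which clock output genes differ with sleep loss. Ciart had the ratio furthest from 1 of the 8 genes in excitatory neurons, with 12.3 CPM in the ad lib library and 6.25 CPM in the sleep-deprived one (383 and 182 UMIs), a ratio of 0.507 (0.422 to 0.606). The sleep-deprived library was the lowest of the 4, since the wild-type SIK3 and Ex13del libraries had 15.9 and 15.5 CPM. Dbp followed in the same direction, at 27.1 against 20.9 CPM (843 and 610 UMIs), a ratio of 0.772 (0.694 to 0.857). The fold used to call a gene apart was 1.3 in either direction, and only genes that averaged 5 CPM or more and reached 100 UMIs over both libraries were counted. By that rule Ciart was lower and 0 of the 8 genes were higher, and Dbp was just inside the limit. Of all 12010 genes counted in excitatory neurons, 14.8% were at least 1.3-fold apart, so 1 of 8 is a share close to the background. Of these genes apart, 605 were higher and 1172 lower in the sleep-deprived library, so lower values were the more frequent ones among all genes too.

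**Figure D2:**
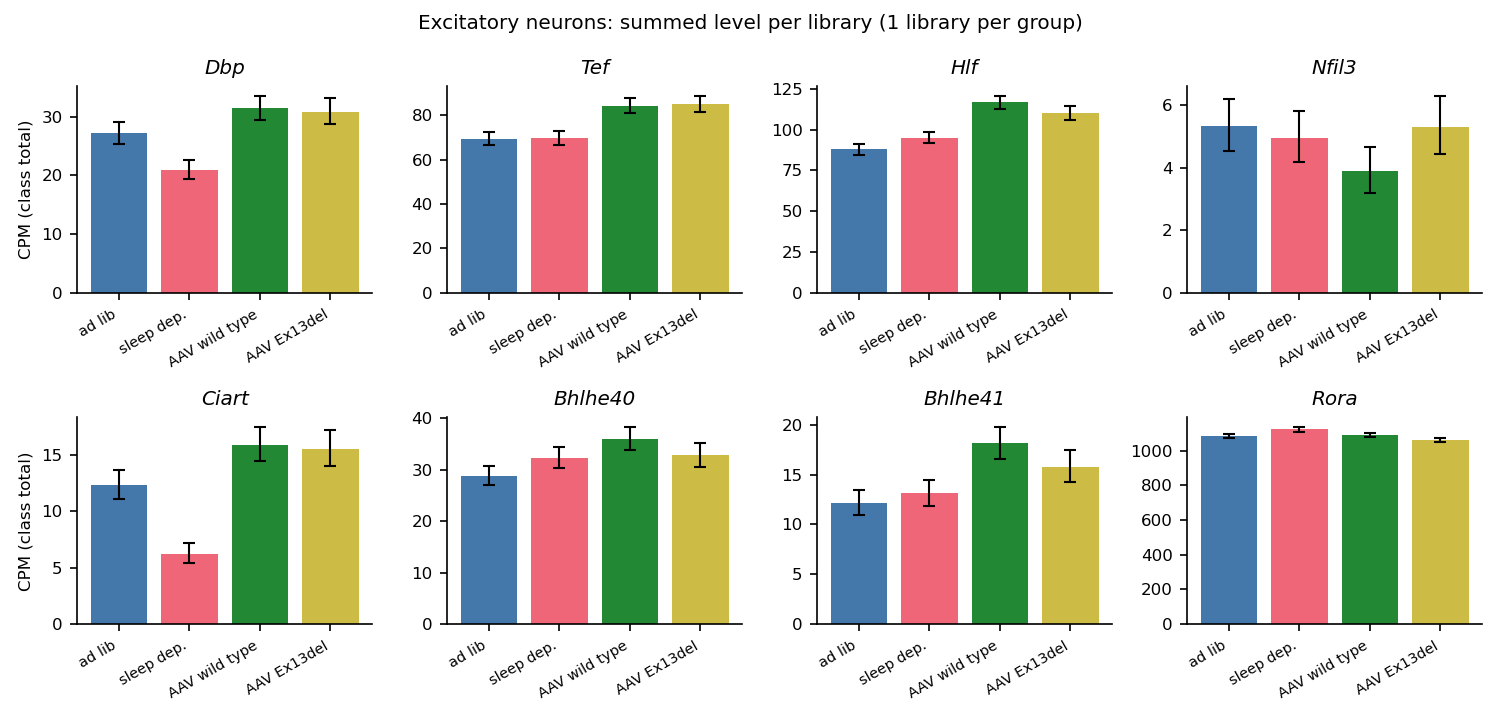
Levels in excitatory neurons (CPM of the class total, bars from 0) in the 4 libraries, with exact 95% Poisson intervals as error bars; 1 library per group. Ciart is lowest in the sleep-deprived library at 6.25 CPM and Dbp at 20.9 CPM, while Tef, Hlf and Bhlhe41 are highest in the AAV libraries.

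Tef, the second PAR bZIP gene, was level between the libraries, at 69.5 and 69.6 CPM, a ratio of 1.0 (0.943 to 1.07). Hlf had 87.9 and 95.1 CPM, a ratio of 1.08 (1.03 to 1.14), and its repressing counterpart Nfil3 had 5.31 and 4.95 CPM, a ratio of 0.931 (0.739 to 1.17). Bhlhe40 had 28.8 and 32.3 CPM (1.12, 1.02 to 1.23) and Bhlhe41 12.2 and 13.1 CPM (1.08, 0.932 to 1.25). Rora differed least after Tef, at 1085 and 1123 CPM (1.03, 1.02 to 1.05). The 3 PAR bZIP genes did not move together here: Dbp was lower, Tef level and Hlf slightly higher. The median log2 ratio of the 8 genes was 0.03, against -0.03 over all genes counted.

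The lower Ciart level was spread over the excitatory neurons. It was lower in 8 of 8 subclasses, from a ratio of 0.316 in L5/6 NP to 0.708 in L6 IT neurons, and in 5 of them the interval lay below 1. L2/3 IT neurons had 11.4 and 4.83 CPM (89 and 40 UMIs; 0.424, 0.285 to 0.623) and L5 ET neurons 19.2 and 6.79 CPM (53 and 19 UMIs; 0.355, 0.198 to 0.609). All 4 inhibitory subclasses also had ratios below 1, although Vip neurons rest on 11 and 1 UMIs and the interval lay below 1 in only 2 subclasses. Inhibitory neurons as a whole had 8.61 and 5.26 CPM, a ratio of 0.610 (0.373 to 0.975). Astrocytes had 18.0 and 10.3 CPM (0.574, 0.273 to 1.15), an interval that includes 1. Oligodendrocytes and microglia had ratios above 1 from 5 and 8 UMIs and from 2 and 2 UMIs.

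Several other measured values stand beside those of Ciart. C920021L13Rik, the antisense gene that covers it, had 18.0 and 15.8 CPM in the ad lib and sleep-deprived excitatory neurons. How reads in the shared bases were assigned was not tested. The share of excitatory nuclei with a Ciart UMI was 9.07% (8.18 to 10.02) in the ad lib library at a median depth of 7201 UMIs and 8.36% (7.18 to 9.67) in the sleep-deprived one at 13211.5. After nuclei with at least 2000 UMIs were thinned to 2000, the shares were 2.29% (1.84 to 2.83) and 1.57% (1.06 to 2.23). Shallower nuclei were left out, 138 of 3847 and 59 of 1974. In inhibitory neurons, the class with the lowest Ciart level, the thinned shares were 1.53% (0.857 to 2.51) and 0.498% (0.0603 to 1.79), at median depths of 6187 and 11399 UMIs. In the unnamed low-depth cluster Ciart had 18.6 and 13.1 CPM and Dbp 87.0 and 61.5 CPM, and the part of that cluster in the results was not tested.

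Dbp was lower after sleep deprivation outside excitatory neurons too. Among classes with at least 50 nuclei in each library, Dbp was below its ad lib level in 7 of 7 outside excitatory neurons. The interval lay below 1 in 3 of them. Endothelial cells had 135 and 53.2 CPM (76 and 28 UMIs), a ratio of 0.395 (0.247 to 0.617). Astrocytes had 95.1 and 62.0 CPM, a ratio of 0.652 (0.489 to 0.863), and striatal projection neurons 56.2 and 42.2 CPM, a ratio of 0.750 (0.573 to 0.984). Within excitatory neurons 6 of 8 subclasses were lower, from 0.643 (0.508 to 0.811) in L5 IT neurons; L5/6 NP and L6b neurons, with 17 and 14 and with 12 and 15 UMIs, were the other two. Inhibitory subclasses were mixed, with 2 of 4 lower, from 0.610 in Lamp5/Sncg to 1.13 in Pvalb neurons, and every interval included 1. Sphk2, which overlaps the end of Dbp, had 3.41, 4.05, 3.56 and 4.57 CPM in excitatory neurons of the ad lib, sleep-deprived, wild-type SIK3 and Ex13del libraries.

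**Figure D3:**
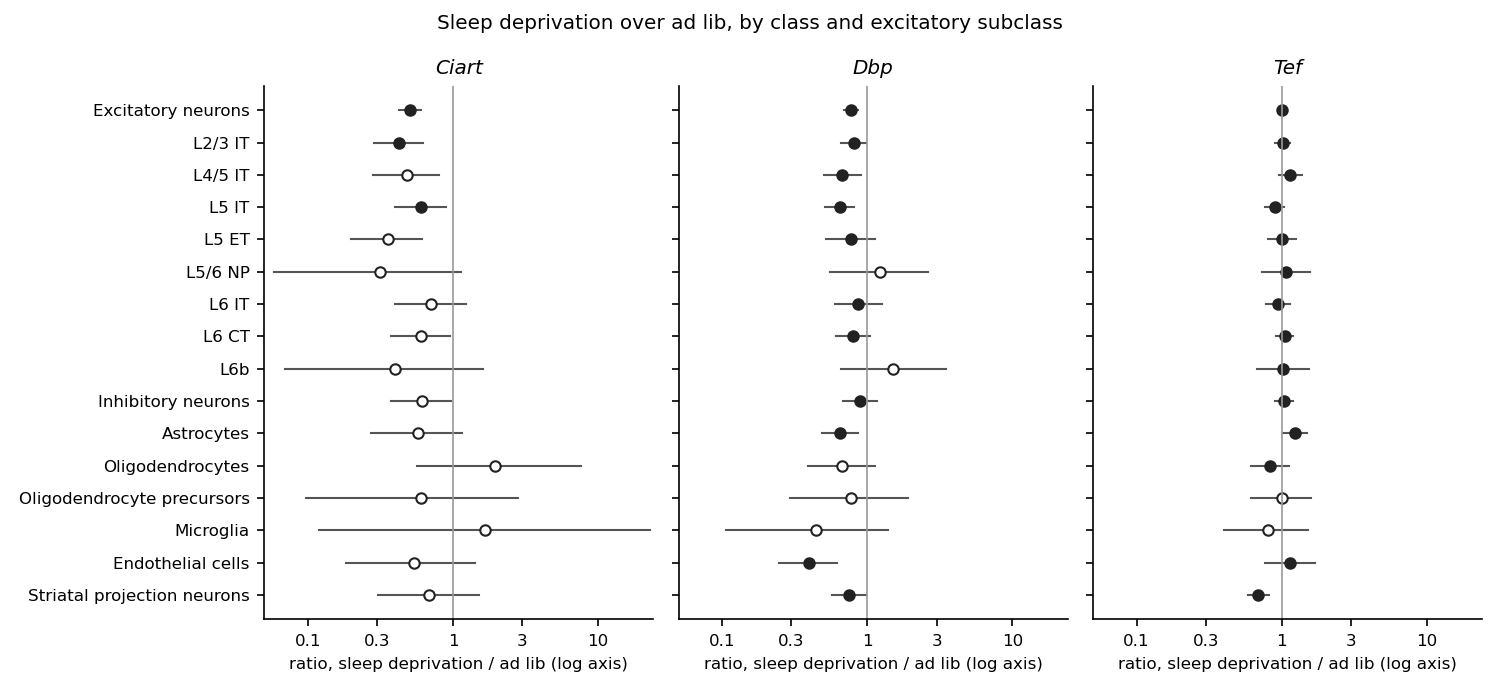
Ratio of sleep-deprived to ad lib CPM (log axis) for Ciart, Dbp and Tef by class and excitatory subclass, with exact 95% counting intervals; filled points rest on 100 UMIs or more over both libraries and open points on fewer. Ciart is below 1 in every excitatory subclass and Dbp in every class outside excitatory neurons, while Tef has an interval clear of 1 only in astrocytes (1.24) and striatal projection neurons (0.690).

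Outside cortical neurons other members differed too. In striatal projection neurons Tef had 141 and 97.4 CPM (0.690, 0.581 to 0.820) and Hlf 126 and 89.8 CPM (0.710, 0.593 to 0.851), so there the 3 PAR bZIP genes were all lower. Rora was higher in the same nuclei, at 1940 and 2520 CPM (1.3, 1.25 to 1.35). The share of all genes apart was not computed for striatal projection neurons. This class had 294 ad lib and 245 sleep-deprived nuclei, at median depths of 5649.5 and 10983 UMIs. In astrocytes Rora also was higher, at 2980 and 4115 CPM (1.38, 1.33 to 1.44), while Tef had 141 and 175 CPM (1.24, 1.02 to 1.5) and Hlf 191 and 195 CPM. Of the 5 genes counted in astrocytes, Rora was higher and Dbp lower by the 1.3-fold rule, beside 24.4% of all genes. Inhibitory neurons had 2 of 6 higher, Bhlhe40 and Bhlhe41, with intervals that include 1 (1.33, 0.913 to 1.94 and 1.40, 0.968 to 2.03), beside 14.7% of all genes. In oligodendrocytes 0 of 3 were apart, beside 25.0%, but the log2 ratio of Rora there (0.37, just inside the limit) ran from -0.28 to 1.51 over the other settings.

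The wild-type SIK3 library was set against the ad lib library, which it shares with the comparison above, so the values of these comparisons are not independent. The groups also differ by the local administration and the virus itself. In excitatory neurons, 2 of the 7 genes counted were higher and 0 lower, beside 5.67% of all genes. Bhlhe41 had 12.2 CPM in the ad lib and 18.1 CPM in the wild-type SIK3 library, a ratio of 1.49 (1.3 to 1.70), and the Ex13del library was between them at 15.8 CPM. Hlf had 87.9 and 117 CPM, a ratio of 1.33 (1.26 to 1.40), with 110 CPM in the Ex13del library. Ciart had 12.3 and 15.9 CPM, a ratio of 1.29 (1.12 to 1.48), just under the fold used, while the antisense C920021L13Rik had 18.0 and 17.2 CPM. Bhlhe40 (1.25), Tef (1.21) and Dbp (1.16) were also above 1, and Rora was level at 1.01. Nfil3 had 5.31 and 3.87 CPM (0.729, 0.568 to 0.933). Its mean over both libraries was under 5 CPM, so it was not counted, although its ratio was beyond the 1.3-fold limit. The median log2 ratio of the counted members was 0.32, against -0.02 over all genes counted.

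By layer, Hlf was higher in 7 of 8 excitatory subclasses, with 96.1 and 153 CPM in L2/3 IT neurons (1.59, 1.45 to 1.75) and 70.3 and 97.0 CPM in L6 CT neurons (1.38, 1.22 to 1.56). In L5/6 NP neurons, where Hlf is most abundant, it had 211 and 186 CPM (0.880, 0.709 to 1.09). Bhlhe41 was highest relative to ad lib in L6 CT neurons, at 9.18 and 18.9 CPM (2.06, 1.49 to 2.87). Ciart had a ratio of 1.68 (1.29 to 2.21) in L2/3 IT neurons and of 0.944 (0.668 to 1.33) in L5 IT neurons. Inhibitory neurons had 3 of 7 genes higher, beside 7.61% of all genes: Bhlhe41 (8.61 and 13.9 CPM; 1.61, 1.15 to 2.27), Bhlhe40 (1.42, 0.998 to 2.02) and Ciart (1.3, 0.914 to 1.86).

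Oligodendrocytes, the myelin-forming glia, had all 4 counted members higher in the wild-type SIK3 library, beside 18.5% of all genes. Tef had 80.5, 66.8, 142 and 138 CPM in the ad lib, sleep-deprived, wild-type SIK3 and Ex13del libraries. Dbp had 30.8, 20.6, 51.5 and 50.8 CPM in the same order. Both AAV libraries were thus above both libraries without virus, with ratios to ad lib in the wild-type SIK3 library of 1.76 (1.38 to 2.26) for Tef and 1.67 (1.12 to 2.53) for Dbp. Hlf had 53.9 and 73.5 CPM (1.36, 0.992 to 1.88). Rora had 181 and 266 CPM (1.47, 1.25 to 1.74), but the Rora ratio turned below 1 under 3 other settings, with log2 values of -0.16, -0.11 and -0.25. Ciart was too scarce there to be counted, with 5, 8, 29 and 33 UMIs, or 3.5, 6.86, 24.5 and 24.6 CPM, and its ratio of wild-type SIK3 to ad lib was 7.0 (2.68 to 23.2). In astrocytes 1 of 5 genes was higher, beside 16.3% of all genes: Rora had 2980 and 4442 CPM (1.49, 1.43 to 1.55). Dbp was lower in endothelial cells, at 135 and 87.7 CPM (0.652, 0.435 to 0.965).

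**Figure D4:**
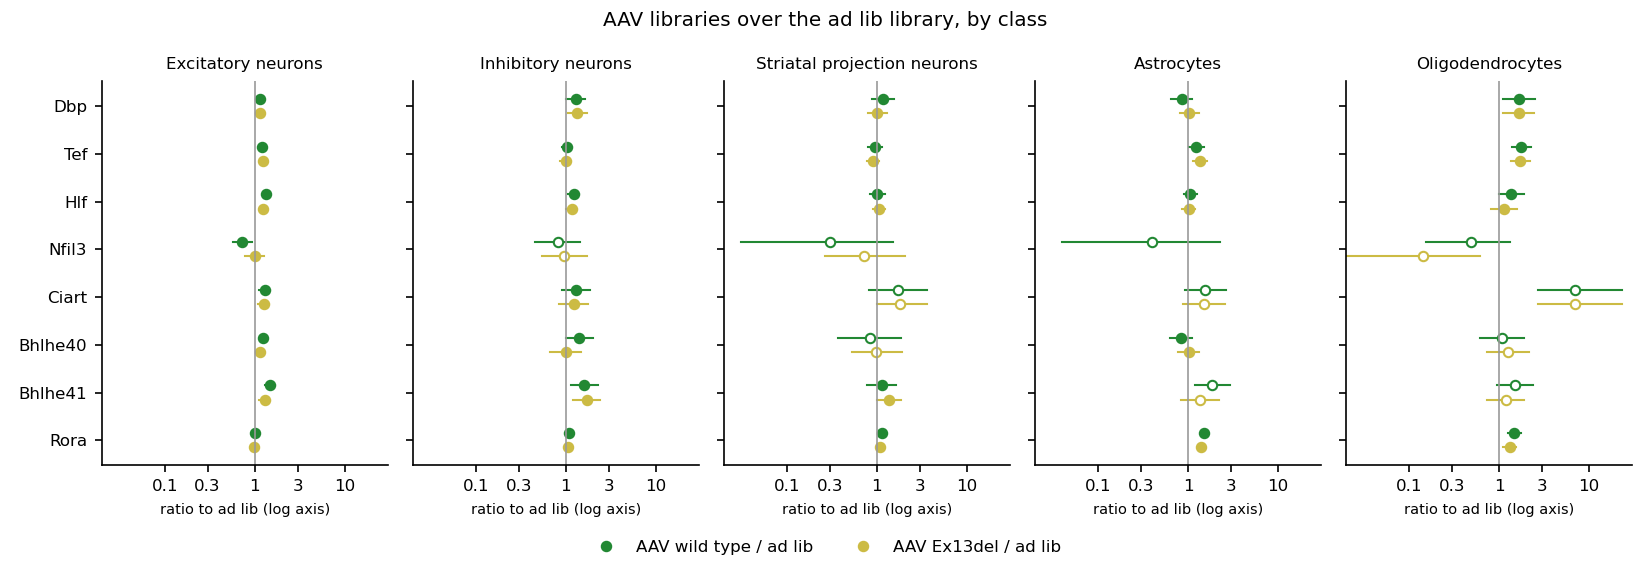
Ratio of each AAV library to the ad lib library (log axis) for the 8 genes in 5 classes, with exact 95% counting intervals; filled points rest on 100 UMIs or more over both libraries, open points on fewer, and ratios of 0 are not drawn. Both AAV libraries lie above 1 for Bhlhe41 and Hlf in excitatory neurons and for Tef, Dbp and Ciart in oligodendrocytes, and they lie close to each other.

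The Ex13del and wild-type SIK3 libraries share the local administration and the AAV8-hSyn vector and differ by the SIK3 form. In excitatory neurons 0 of the 7 genes counted were apart by 1.3-fold, beside 4.32% of all genes. Dbp had 31.4 CPM in the wild-type SIK3 and 30.9 CPM in the Ex13del library (0.981), Tef 84.3 and 85.1 CPM (1.01) and Ciart 15.9 and 15.5 CPM (0.976, 0.850 to 1.12). Hlf had 117 and 110 CPM (0.942, 0.895 to 0.991) and Bhlhe41 18.1 and 15.8 CPM (0.870, 0.761 to 0.994). Nfil3, not counted because its mean over both libraries was under 5 CPM, had 3.87 and 5.30 CPM (112 and 130 UMIs, ratio 1.37, 1.05 to 1.78). Of the 130 Nfil3 UMIs, 36 came from the 117 Ex13del nuclei of 1 cluster described below. Without that cluster Nfil3 had 3.88 and 4.05 CPM (1.04, 0.784 to 1.38), Hlf a ratio of 0.979 (0.931 to 1.03) and Bhlhe41 one of 0.874 (0.763 to 1.0). In inhibitory neurons 1 of 7 was lower, Bhlhe40 with 12 and 8.47 CPM (0.706, 0.479 to 1.03), beside 6.69% of all genes. None of the members counted in astrocytes (0 of 5, beside 14.9%) or oligodendrocytes (0 of 4, beside 13.6%) were apart.

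Because most nuclei of an AAV library carried no vector UMI, the excitatory nuclei of each AAV library were also split by the number of UMIs of the vector's shared 3′ sequence. A vector UMI was found in 590 of 2858 excitatory nuclei (20.6%) of the wild-type SIK3 library and in 568 of 2260 (25.1%) of the Ex13del library, at median depths of 8952.5 and 9587 UMIs. Microglia, where the promoter should be silent, had one in 18.9% and 23.2% of nuclei at median depths of 1782 and 1938 UMIs, so 1 or 2 vector UMIs are read here as background. At 3 or more vector UMIs the shares were 3.29% (94 nuclei) and 4.65% (105 nuclei) in excitatory neurons and 0.498% and 1.10% in microglia. Nuclei with 3 or more are called vector-rich below, and nuclei of the same library with 0 vector-free.

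Hlf and Nfil3 went opposite ways in the vector-rich nuclei of the Ex13del library. Hlf had 118 CPM in nuclei with 0 vector UMIs, 101 with 1 to 2, 45.1 with 3 to 9 and 21.6 with 10 or more. Nfil3 had 4.10, 3.30, 25.3 and 38.5 CPM in the same order. Vector-rich nuclei thus had an Hlf ratio to vector-free ones of 0.274 (0.195 to 0.376; 39 and 2076 UMIs) and an Nfil3 ratio of 7.91 (5.22 to 11.8; 39 and 72 UMIs). Taken as a pool, these 105 nuclei were low in Hlf, a D-box activator gene, and high in Nfil3, the D-box repressor gene. An Hlf UMI was found in 25 of them and an Nfil3 UMI in 30. The relation of the 2 genes within single nuclei was not tested. In the wild-type SIK3 library the Hlf ratio was 1.17 (0.989 to 1.38) and the Nfil3 ratio 1.12 (0.354 to 2.70), from 151 and 5 UMIs in vector-rich nuclei. Tef (0.687, 0.534 to 0.870) and Dbp (0.648, 0.415 to 0.966) were also lower in vector-rich nuclei of the Ex13del library, with 1.07 (0.861 to 1.3) and 1.14 (0.803 to 1.57) in the wild-type SIK3 library. Rora was lower in both, at 0.468 (0.431 to 0.507) and 0.695 (0.649 to 0.744). For Ciart (0.686 and 0.640), Bhlhe40 (0.924 and 0.904) and Bhlhe41 (1.16 and 1.29) every interval included 1 in the Ex13del and wild-type SIK3 libraries. At 10 or more vector UMIs the wild-type SIK3 ratios were 0.663 (0.243 to 1.45) for Dbp, 0.937 (0.592 to 1.41) for Tef and 1.03 (0.715 to 1.43) for Hlf, so the side of 1 on which Dbp and Tef lay there changed with the threshold. The difference between the libraries in these ratios was not tested. The share of all genes apart between vector-rich and vector-free nuclei was not computed, so these ratios have no background beside them.

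**Figure D5:**
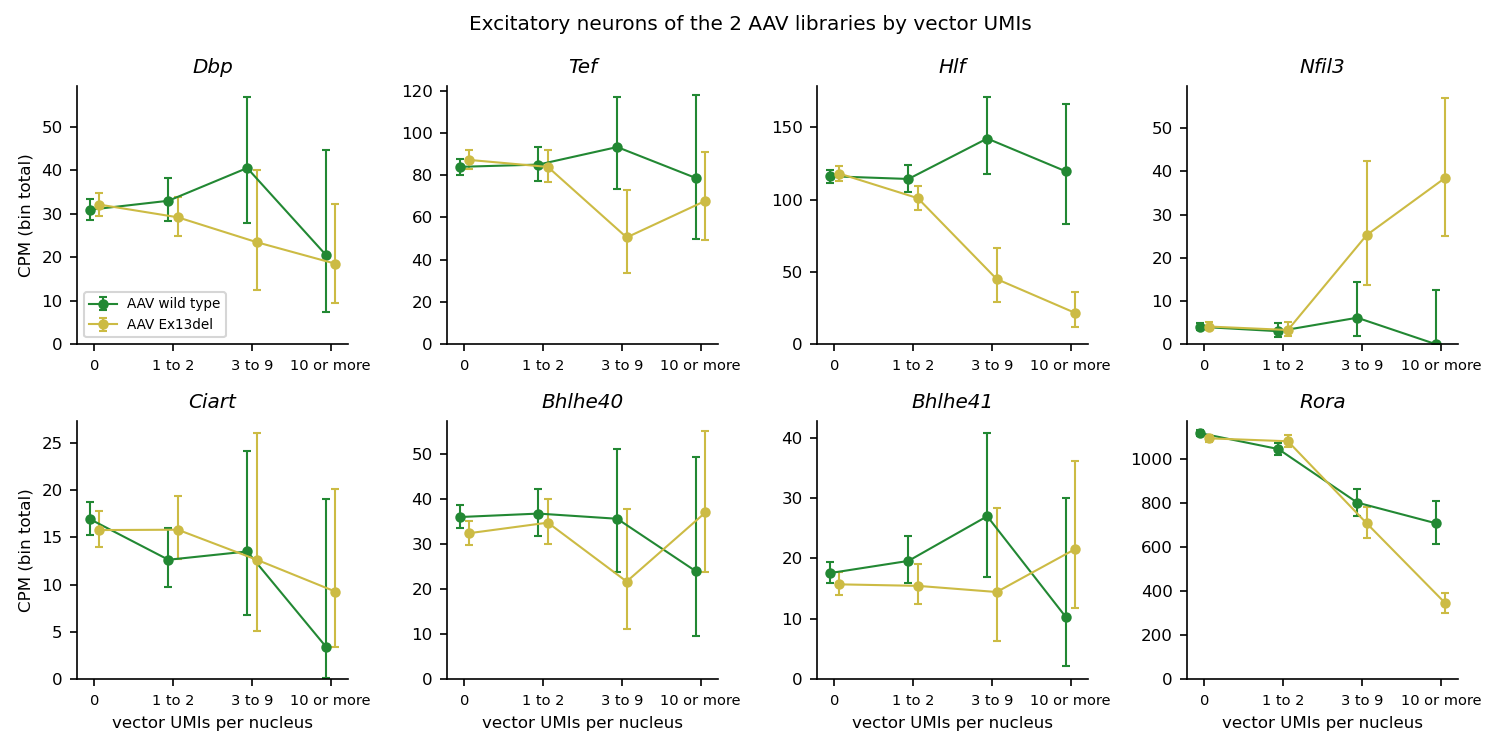
Level (CPM of the bin total, axes from 0) of each gene in excitatory nuclei of the AAV libraries by vector UMIs per nucleus, with exact 95% Poisson intervals; all nuclei of a line come from 1 library. In the Ex13del library Hlf runs from 118 down to 21.6 CPM and Nfil3 from 4.10 up to 38.5 CPM, while the wild-type SIK3 library stays level for Hlf. Of the 54 Ex13del nuclei with 10 or more vector UMIs, 47 lie in 1 cluster.

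The vector-rich nuclei of the Ex13del library were not spread over the subclasses like the others. A cluster of 148 excitatory nuclei, 117 of them (79.1%) from the Ex13del library, held 69 of the 105 vector-rich and 23 of the 1692 vector-free nuclei. Its leading genes by fold were the vector itself, the olfactory receptor genes Olfr115, Olfr112, Olfr111 and Olfr113, then Slamf1 and Atf3, a stress-induced transcription factor gene. Olfr115, Olfr111 and Olfr112 were also among the 10 leading genes of the L6b cluster. L6b neurons averaged 44.5 CPM of Hlf, 2.90 of Nfil3 and 5.77 of Bhlhe40. The 117 Ex13del nuclei had 28.4, 27.6 and 35.3 CPM of these genes. A likeness to L6b neurons was not tested, and the cluster of 148 nuclei had no subclass name. Without that cluster the Hlf ratio was 0.458 (0.286 to 0.695) and the Nfil3 ratio 6.23 (2.86 to 12.2), from 36 vector-rich nuclei with 22 Hlf and 10 Nfil3 UMIs. For the same 36 nuclei, with vector-free nuclei weighted to their cluster mix, the Hlf ratio was 0.561 and the Nfil3 ratio 6.23. No interval was computed for this weighting, which also leaves that cluster out. At 10 or more vector UMIs, with that cluster included, the Hlf and Nfil3 ratios were 0.183 and 9.41. Of those 54 nuclei, 47 lay in the cluster, and the 7 outside it held 3 Hlf and 0 Nfil3 UMIs. Outside the cluster, the 29 nuclei with 3 to 9 vector UMIs had 63.3 CPM of Hlf and 33.3 CPM of Nfil3. The Bhlhe40 ratio, 0.924 with all nuclei, was 0.460 (0.168 to 1.01) without the cluster and 0.453 with the weighting. Dbp had 0.613 (0.263 to 1.22) and Tef 0.623 (0.389 to 0.947) without it, and at 10 or more vector UMIs 0.576 (0.296 to 1.01) and 0.778 (0.563 to 1.05), so the interval of Dbp under both of these settings, and that of Tef at 10 or more, included 1. Rora had 0.409 (0.352 to 0.474) without the cluster and 0.551 with the weighting. In the wild-type SIK3 library the weighting gave a Rora ratio of 0.759, against 0.695 with all nuclei. Within the cluster, the 117 nuclei of the Ex13del library had 28.4 CPM of Hlf and 27.6 CPM of Nfil3. The part of cell state, of vector dose and of the SIK3 form in these values was not tested.

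The partners of these genes in the clock were counted as 2 whole lists, the core clock loop (21 genes in the feature table, 18 counted in excitatory neurons) and reported D-box targets (20 genes, 17 counted), which share clock genes. After sleep deprivation the core list had 1 gene higher in excitatory neurons, Per2, a repressor of CLOCK-BMAL1, with 13.7 and 22.3 CPM (1.63, 1.44 to 1.85). Usp2, a deubiquitinase gene, was 1 lower, with 49.9 and 37.1 CPM (0.743, 0.686 to 0.803). Per2 ran against Ciart, another repressor of the same complex, in the same nuclei. Of the D-box list Nampt, the NAD salvage enzyme, was lower with 26.3 and 19.3 CPM (0.736, 0.660 to 0.820), Per2 was the 1 higher gene, and the median log2 ratio was 0.03. In astrocytes the core list had 4 of 16 higher, Npas2 (147 and 307 CPM; 2.08, 1.77 to 2.47), Per1 (1.55), Arntl (1.44) and Per2 (1.36), and 2 lower, Nr1d2 (179 and 108 CPM; 0.603, 0.487 to 0.743) and Rorb (0.681). The D-box list had 4 of 12 higher there, Tsc22d3 and Kcnk1 with Per1 and Per2, and 2 lower, Slc6a6 and Nr1d2. These counts, 6 of 16 and 6 of 12 apart, stand beside the 24.4% of all genes apart in astrocytes.

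In the wild-type SIK3 library 3 core genes were higher than ad lib in excitatory neurons: Per2 with 13.7 and 36.2 CPM (2.64, 2.36 to 2.96), Cry1 with 10.3 and 20.1 CPM (1.95, 1.70 to 2.25) and Per1 with 26.4 and 36.3 CPM (1.37, 1.25 to 1.5). These 3 were also the D-box list's higher genes, and 0 genes of either list were lower. Against the wild-type SIK3 library, the Ex13del library had 1 gene higher in both lists, Per3, with 58.2 and 80.0 CPM (1.37, 1.29 to 1.47), and 0 lower. The shares apart in excitatory neurons, 2 of 18, 3 of 18 and 1 of 18 of the core list, stand beside the 14.8%, 5.67% and 4.32% of all genes given above.

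The genes most like each member over the 18 classes and subclasses were sought among 12240 genes by Pearson r on log2(CPM + 1), using means of the 4 libraries; the units share libraries and differ in depth. Dbp was most like Tef (r = 0.91), Foxo1 (0.91) and Rbm15 (0.89), and Tef was most like Dbp, Cep128 (0.89) and Foxo1 (0.87). Hlf was most like Rabl6 (0.85), Adgrl1 (0.82) and Cd302 (0.76). Ciart was most like Anxa5 (0.84), Serpinb6a (0.77) and the member Bhlhe40 (0.76), and Bhlhe40 itself was nearest to Haus3 (0.85), Elmo2 (0.85) and Stard8 (0.83). Bhlhe41 was nearest to Mettl1 (0.87), Prpf38b (0.85) and Acrbp (0.85). Rora was nearest to Gm3764 (0.81), its antisense neighbour Gm15511 (0.81) and Pde8b (0.80). Nfil3 stayed below the 20 CPM asked of the genes compared, and its nearest genes, Pms2 (0.74), Pak7 (0.71) and Zmym1 (0.71), rest on few UMIs.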

How the data were processed

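The deposited files hold raw UMI counts per gene and nucleus; per the submitters' processing notes they came from Cell Ranger 6.1.2 and build mm10, and the labels' protocols name the 10x 3′ v3.1 kit. The strand setting is not given in the sources used here. Nuclei with at least 500 genes and under 5% mitochondrial UMIs were kept. Automatic doublet calls (428, 0, 0 and 4) had not worked, so the nuclei with the highest doublet scores were removed at 0.8% per 1000 barcodes (1640 nuclei). Counts were centred within each library, clustered with scanpy 1.11.5 and leidenalg 0.10.2 (resolution 1) and named from marker lists, with naming thresholds set after the data were seen; shares of nuclei can therefore differ from the study's own names. UMIs were summed per class and library as CPM. Ratios have exact conditional, levels exact Poisson and shares exact Clopper-Pearson 95% intervals (scipy 1.17.1). Because PCR duplicates were removed by UMI but nuclei are not replicates, intervals cover counting error only, and no test was made. The ratio script was tested on simulated data. The 8 genes, the lists and the contrasts were chosen with earlier results of these data known. The named genes were all 8 members, the listed genes at least 1.3-fold apart in the class discussed and the 3 genes most like each member. Positions are from GENCODE vM21 (mm10).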

Additional observations from a re-analysis of the deposited data

Results flagged for a closer look

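Some members differed in opposite directions between classes or libraries under the same contrast, with values on either side of 1; the differences themselves were not tested, and each side is 1 library. Against ad lib, the wild-type SIK3 library had a Dbp ratio of 1.67 in oligodendrocytes and of 0.652 in endothelial cells. Against wild-type SIK3, the Ex13del library had a Rora ratio of 1.36 (1.13 to 1.65) in endothelial cells and of 0.651 (0.451 to 0.932) in microglia. In excitatory neurons, the ratio of vector-rich to vector-free nuclei was above 1 in the wild-type SIK3 library and below 1 in the Ex13del library for the 3 PAR bZIP genes: 1.14 and 0.648 for Dbp, 1.07 and 0.687 for Tef, and 1.17 and 0.274 for Hlf. The wild-type SIK3 intervals all included 1 (0.803 to 1.57, 0.861 to 1.3 and 0.989 to 1.38), and at 10 or more vector UMIs the ratios there were 0.663 for Dbp and 0.937 for Tef, below 1 as in the Ex13del library.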

How the results depend on the processing

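The 3 comparisons were recomputed under 8 other settings in excitatory neurons, inhibitory neurons, astrocytes and oligodendrocytes. Ratios of subclasses and of the other classes were not. In excitatory neurons, Ex13del against wild-type SIK3 had a further, unplanned setting, without the cluster mostly from the Ex13del library. Its values are among the alternative values counted below. No paired analysis was possible because each group has 1 library, and for the same reason no library could be left out. Leaving out settings that cannot change a ratio, the 68 member ratios had 427 alternative values, of which 400 lay within the counting interval of the reported ratio and 27 outside it. The direction changed in 36, and in 30 of these the reported interval included 1. The other 6 were Rora in oligodendrocytes for wild-type SIK3 against ad lib (log2 0.56; -0.16 with nuclei thinned to 3000 UMIs, -0.11 with the stricter filter on nuclei, -0.25 at Leiden resolution 2) and for sleep deprivation (0.37; -0.20 thinned, -0.28 with the stricter filter), and Hlf in excitatory neurons for Ex13del against wild-type SIK3 (-0.09; 0.02 in nuclei with 0 vector UMIs); the cause was not tested. Thinning to 3000 UMIs left out shallower nuclei. It kept 70 of 732 ad lib, 158 of 334 sleep-deprived and 106 of 507 wild-type SIK3 oligodendrocytes. Without centring within libraries the sleep deprivation ratio of Rora in oligodendrocytes was 1.51 (log2). In excitatory neurons, log2 ratios after sleep deprivation ran from -1.01 to -0.80 for Ciart and from -0.51 to -0.33 for Dbp. The count of members apart after sleep deprivation was 1, became 2 with thinned nuclei (Dbp and Ciart) and 0 at a floor of 20 CPM, which leaves 5 members. For wild-type SIK3 against ad lib it was 2, and became 1 under the stricter filter (Bhlhe41) and 1 at 20 CPM (Hlf). It stayed at 0 for Ex13del against wild-type SIK3 in all settings run. In the Ex13del library the Hlf ratio of vector-rich to vector-free nuclei (0.274) was 0.183 at 10 or more vector UMIs. Of those 54 nuclei, 47 were in the cluster mostly from that library. Without that cluster the Hlf ratio was 0.458, and with the weighting to the cluster mix, which also leaves it out, 0.561. These 3 settings were chosen after seeing the data. At 10 or more vector UMIs the wild-type SIK3 ratios of Ciart (0.640) and Bhlhe41 (1.29) were 0.202 (0.00509 to 1.13) and 0.584 (0.120 to 1.72). They rest on 1 and 3 UMIs in 22 nuclei, and both intervals include 1. Dbp and Ciart were highest in astrocytes in place of endothelial cells once nuclei were thinned to 3000 UMIs. That setting leaves out shallower nuclei, and classes with too few nuclei left were not ranked. Endothelial cells had a median of 1210.5 UMIs in the ad lib library. Nfil3, and Ciart outside excitatory neurons, are limited by depth.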

Other observations

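Values outside the comparisons come from classes that were too small or had no name. Leptomeningeal fibroblasts had the highest Hlf level of any class, with 435, 291, 414 and 383 CPM in the ad lib, sleep-deprived, wild-type SIK3 and Ex13del libraries, from 62, 46, 34 and 46 nuclei. Pericytes and smooth muscle cells had 207, 139, 82.2 and 112 CPM of Dbp in the same order, from 38, 22, 33 and 21 nuclei. The unnamed low-depth cluster, with a median of 924 to 1123 UMIs per nucleus, had 188, 232, 251 and 268 CPM of Hlf and 4.64, 12.1, 5.33 and 6.89 CPM of Nfil3.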
